A study of Mus musculus with 6 samples.

Results

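The genes examined here encode the mechanotransduction machinery of the inner ear hair cell (HC): the channel genes *Tmc1*, *Tmc2*, *Tmie*, *Lhfpl5*, *Cib2* and *Cib3*, the tip-link genes *Pcdh15* and *Cdh23*, and *Tomt*, which is needed to bring the channel to the hair bundle. They were chosen by gene symbol for their known role, and all 9 were found among the 52636 genes of the count table. The tissue was vestibular epithelium of male 129S1/SvImJ mice that were 2 to 4 months old at the start of the exposure. Of these, 3 received 30 mM 3,3'-iminodipropionitrile (IDPN), a nitrile toxic to HCs, in the drinking water for 8 weeks, and 3 Control mice drank plain water. One library was made per animal, from 2 utricles and 6 cristae pooled without separation of cell types, by SMART-seq2, which amplifies full-length cDNA from polyadenylated RNA, with 6 to 11 ng of total RNA as input. The comparison asked whether the transcripts of the transduction complex changed in the vestibular epithelium under chronic ototoxic exposure.

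Vestibular HCs convert head movement into current at the tips of their stereocilia. Tip links, built from CDH23 at the upper end and PCDH15 at the lower end, pull on a channel whose pore is formed by TMC1 and TMC2. TMIE and LHFPL5 are membrane proteins that couple the pore to the tip link, CIB2 and CIB3 are calcium-binding proteins that attach to the TMC proteins, and TOMT is a transmembrane methyltransferase-like protein required for TMC proteins to reach the stereocilia. Several of the genes come in pairs of close relatives that can share tasks, and *Tmc2* and *Cib3* both act in vestibular HCs.

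The paired genes were first compared in sequence, because an estimated count can be trusted for one of a pair only if its reads can be told from those of the other. The stretch shown for each pair holds the longest run of bases that their coding sequences have in common, printed in capitals, with flanking bases in lower case. The sequences are those of GENCODE M21 transcripts on GRCm38, read 5′ to 3′ on the strand of the gene. Each stretch crosses an exon junction, so the genomic span given for it includes an intron.
Cib2, exons 5 to 6, minus strand, chr9:54545466-54545923: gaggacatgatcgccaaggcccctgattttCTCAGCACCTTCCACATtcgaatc
Cib3, exons 4 to 5, minus strand, chr8:72204412-72205597: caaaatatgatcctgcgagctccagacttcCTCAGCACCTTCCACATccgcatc
Tmc1, exons 16 to 17, minus strand, chr19:20799196-20804636: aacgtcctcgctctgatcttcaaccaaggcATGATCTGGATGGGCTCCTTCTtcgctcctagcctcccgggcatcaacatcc
Tmc2, exons 15 to 16, plus strand, chr2:130247945-130248665: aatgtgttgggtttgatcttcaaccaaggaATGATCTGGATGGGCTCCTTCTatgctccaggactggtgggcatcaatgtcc

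*Cib2* and *Cib3* were identical at 69.2% of 470 aligned coding bases, and their longest common run was 17 bases. *Tmc1* and *Tmc2* were identical at 67.5% of 2234 aligned bases, with a longest common run of 22 bases. Both runs are far shorter than the 76-base reads. No 76-base window of *Tmc1*, *Lhfpl5*, *Cib3*, *Pcdh15* or *Cdh23* occurred in a transcript of another annotated gene, and none of the 9 genes had such a window in common with another of the 9.

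The reads carried no strand, so exons that lie opposite a second gene are counted without a means to tell both genes apart. This touches *Tomt* most. Of its exonic length, 69.3% lies opposite exons of *Anapc15*, a subunit gene of the anaphase-promoting complex. Of its 76-base windows, 63.9% also occurred, on either strand, in transcripts of *Anapc15*, *Anapc15-ps* or *Gm9364*. *Anapc15* itself had 235 ± 49.8 normalized counts in Control against 223 ± 35.2 in IDPN (SD, n = 3 each). *Cib2* has 15.8% of its exonic length opposite *Sh2d7*, which had no more than 1 estimated count in any library. *Tmie* has 7.89% opposite *Als2cl*, which had 574 ± 51.6 normalized counts in Control against 717 ± 49.8 in IDPN (SD, n = 3 each). How many reads of one gene were assigned to the other was not tested.

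Libraries held between 40474847 and 43566332 estimated counts each, and HC genes were present in all of them. A list of 16 HC genes that are not among the 9, such as the myosin gene *Myo7a* and the transcription factor gene *Pou4f3*, was detected in full. Its summed normalized count was 40992 to 46600 in Control against 26941 to 29224 in IDPN. *Myo7a* itself was not lower, with 799 ± 239 normalized counts in Control against 808 ± 133 in IDPN (SD, n = 3 each). The title codes of the Control animals have a stem in common that no IDPN animal carries, so the code stem and the treatment cannot be told apart as sources of a difference. IDPN 2 and IDPN 3 have another stem in common, and IDPN 1 has one of its own. All 6 libraries carry the same batch label. Tests over 3 against 3 animals set a group difference against the spread between these 6 libraries. With 1 library per animal, differences between animals and between library preparations cannot be told apart.

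After 8 weeks of IDPN, all 9 transduction genes had a lower mean normalized count than in Control, and 5 of them were downregulated: *Pcdh15*, *Cib3*, *Tmc2*, *Tmc1* and *Lhfpl5*. None was upregulated. A gene counted as downregulated or upregulated when its DESeq2 adjusted p (Padj, Benjamini-Hochberg over all genes) was under 0.05 and its fold change exceeded 1.5. By this rule 3.42% of the 17650 genes tested were downregulated, and 5.75% changed in either direction. The median log2-Fold_Change of the 9 genes was −0.70, with values from −1.12 to −0.14, against a median of 0.015 over the 17650 genes tested. In bulk tissue, fewer HCs and less RNA per HC cannot be told apart.

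In normalized counts, the groups of libraries did not overlap for 8 of the 9 genes, with IDPN lower in each. Over all genes tested, 11.4% had every IDPN library below every Control library. Summed over the 9 genes, the normalized counts were 22173, 21113 and 20785 in Control 1 to 3 against 13984, 14283 and 12211 in IDPN 1 to 3. *Cib3* made the largest contribution to each sum. Normalized counts are the estimated counts divided by the size factor of the library, and are used here to compare one gene between libraries. The separation of the groups depends on the size factors. These were 0.825, 0.866 and 1.12 in Control 1 to 3 against 1.21, 0.996 and 1.07 in IDPN 1 to 3. In estimated counts, without them, only *Cib3*, *Tmc2* and *Pcdh15* had every IDPN library below every Control library. *Tmie*, for example, had 1416, 1432 and 2101 in Control against 1960, 1583 and 1658 in IDPN.

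**Figure D1:**
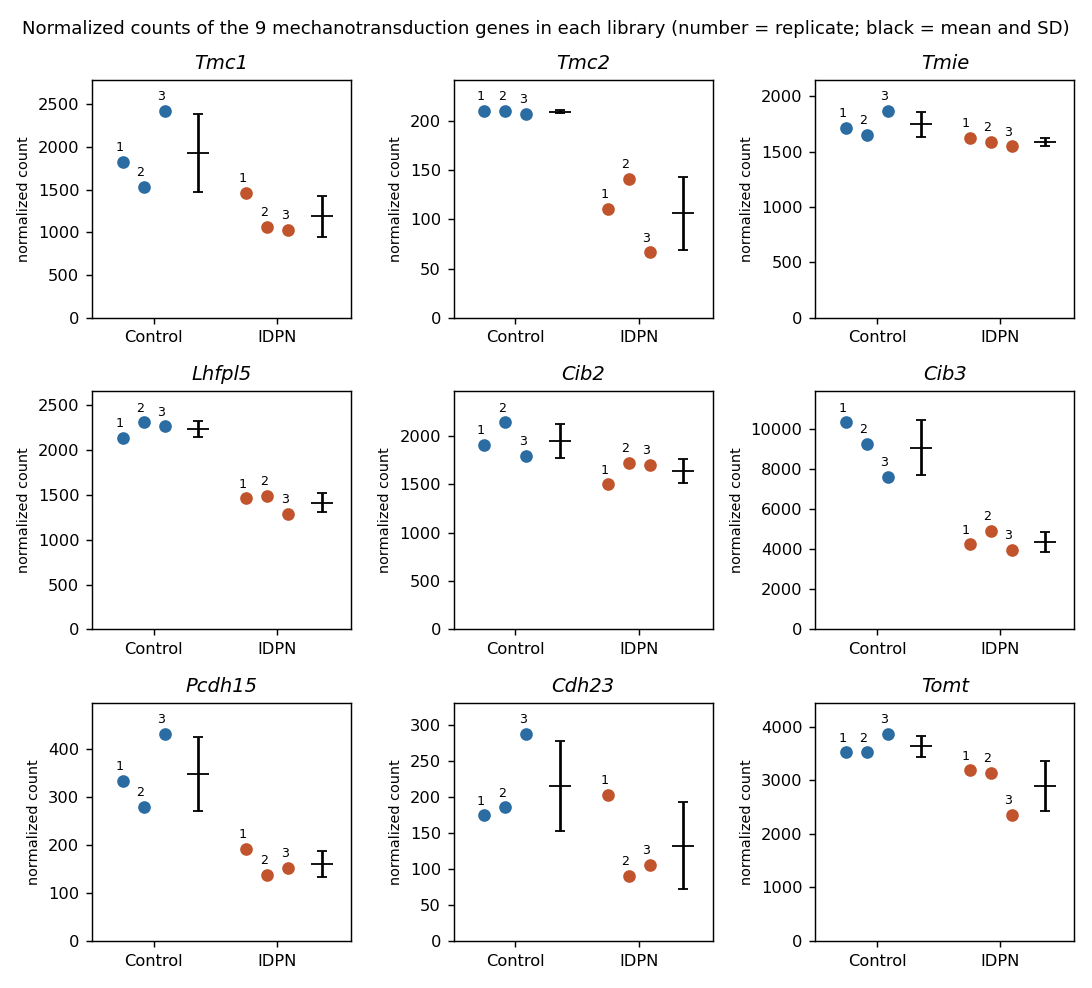
Normalized counts (vertical axes, linear from 0) of the 9 transduction genes in each Control (blue) and IDPN (orange) library, with the replicate number above each point and the group mean ± SD in black. All IDPN points lie below all Control points for every gene but *Cdh23*, where IDPN 1 (203) lies above Control 1 (175) and Control 2 (186).

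The pore genes were both downregulated. *Tmc1* (ENSMUSG00000024749.8, chromosome 19, 20783458 to 20954202) had 1820.5, 1534 and 2422 normalized counts in Control 1 to 3 against 1464, 1066 and 1028 in IDPN 1 to 3. The highest IDPN animal thus came within a narrow margin of the lowest Control animal. Its mean went from 1925 ± 453 to 1186 ± 241 (SD, n = 3 each), a log2-Fold_Change of −0.70 (95% interval −1.12 to −0.28, DESeq2 Padj = 0.0231).

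*Tmc2* (ENSMUSG00000060332.9, chromosome 2, 130195194 to 130264445) had 209.8, 210.1 and 207 normalized counts in Control against 111, 141 and 66.3 in IDPN. Control animals lay close together, while the IDPN animals were spread widely, all below Control. The log2-Fold_Change was −0.98 (95% interval −1.57 to −0.39, DESeq2 Padj = 0.0239).

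Neither pore gene passed with the edgeR quasi-likelihood test, with adjusted p of 0.102 for *Tmc1* and 0.0983 for *Tmc2*. Both calls were also lost in most fits that left out 1 animal, which have fewer animals to test. *Tmc1* was not called without Control 1 (log2-Fold_Change −0.74, DESeq2 Padj = 0.0738), Control 3 (−0.50, 0.117), IDPN 2 (−0.63, 0.120) or IDPN 3 (−0.61, 0.189). *Tmc2* kept its call only without IDPN 2, and its DESeq2 Padj ran from 0.0597 to 0.133 in the other 5 fits that left out 1 animal. In 4 of these 5 its log2-Fold_Change stayed between −1.01 and −0.98, and it was −0.74 without IDPN 3.

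Of the auxiliary subunits, *Lhfpl5* was downregulated and *Tmie* was not, and the difference between them was not tested. *Lhfpl5* (ENSMUSG00000062252.8, chromosome 17, 28575641 to 28585679), whose product couples the pore to PCDH15, had 2135, 2311 and 2265 normalized counts in Control against 1461, 1487 and 1292 in IDPN. The gap between the groups was several times wider than the spread within either. IDPN stood at 63.2% of Control in the fit, and the gene passed with edgeR too (adjusted p = 0.0198).

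*Tmie* (ENSMUSG00000049555.10, chromosome 9, 110865711 to 110880113), whose product is required for the channel to gate, had 1717, 1653 and 1869 normalized counts in Control against 1622, 1589 and 1547 in IDPN. The groups did not overlap, but they lay close together. The log2-Fold_Change was −0.14 (95% interval −0.43 to 0.16, DESeq2 Padj = 0.731), so a fall of more than 26.0% lay outside the interval.

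Of the calcium-binding partners, *Cib3* was downregulated and *Cib2* was not. *Cib3* (ENSMUSG00000074240.4, chromosome 8, 72204335 to 72212837) had 10355, 9279 and 7638 normalized counts in Control against 4247, 4915 and 3968 in IDPN. Every IDPN animal was far below the lowest Control animal. Its mean fell from 9091 ± 1368 to 4377 ± 486 (SD, n = 3 each), a log2-Fold_Change of −1.05 (95% interval −1.39 to −0.72, DESeq2 Padj = 9.59e-08, edgeR adjusted p = 0.00938).

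*Cib2* (ENSMUSG00000037493.6, chromosome 9, 54544794 to 54560218) had 1907, 2142 and 1797 normalized counts in Control against 1500.4, 1722 and 1700.3 in IDPN. Control 3 lay just above IDPN 2 and IDPN 3. The log2-Fold_Change of −0.25 was not significant (95% interval −0.56 to 0.06, DESeq2 Padj = 0.460).

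Of the tip-link genes, *Pcdh15* (ENSMUSG00000052613.16, chromosome 10, 73099342 to 74649737) showed the largest estimated change of the 9, but from few counts for its length. It had 334, 278 and 431 normalized counts in Control against 191, 138 and 152 in IDPN, without overlap. The log2-Fold_Change was −1.12 (95% interval −1.61 to −0.62, DESeq2 Padj = 0.000554, edgeR adjusted p = 0.0287). 

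*Cdh23* (ENSMUSG00000012819.15, chromosome 10, 60302748 to 60696490) had 175, 186 and 288 normalized counts in Control against 203, 90.4 and 105 in IDPN. IDPN 1 lay above Control 1 and Control 2, and this was the one gene of the 9 with overlapping groups. Its log2-Fold_Change of −0.70 equalled that of *Tmc1* but was not significant (95% interval −1.37 to −0.03, DESeq2 Padj = 0.258). Without IDPN 1 the log2-Fold_Change was −1.14 and the gene was called (DESeq2 Padj = 0.0248).

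*Tomt* (ENSMUSG00000078630.8, chromosome 7, 101898370 to 101906359) had 3521, 3520.4 and 3867 normalized counts in Control against 3185, 3136 and 2352 in IDPN. IDPN 3 stood apart below the other IDPN animals. The log2-Fold_Change of −0.33 was not significant (95% interval −0.66 to 0.00, DESeq2 Padj = 0.299), and it carries the overlap with *Anapc15* described above.

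The calls of *Cib3*, *Lhfpl5* and *Pcdh15* held without any single animal and with edgeR, which called these 3 of the 9 genes (with edgeR, 2.19% of all genes tested were downregulated and 1.02% upregulated, 3.21% in all). With libraries scaled to their total counts, which moved the median gene by 0.25 on the log2 scale, *Cib3* alone was called (−0.79, DESeq2 Padj = 0.00164). *Lhfpl5* (−0.42, DESeq2 Padj = 0.286) and *Pcdh15* (−0.88, 0.105) then missed the threshold, and 1.28% of all genes tested were downregulated and 3.64% upregulated. With that common shift, the small changes of *Tmie* (0.10) and *Cib2* (0.0051) lay on the other side of 0, so their sign depends on the scaling.

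**Figure D2:**
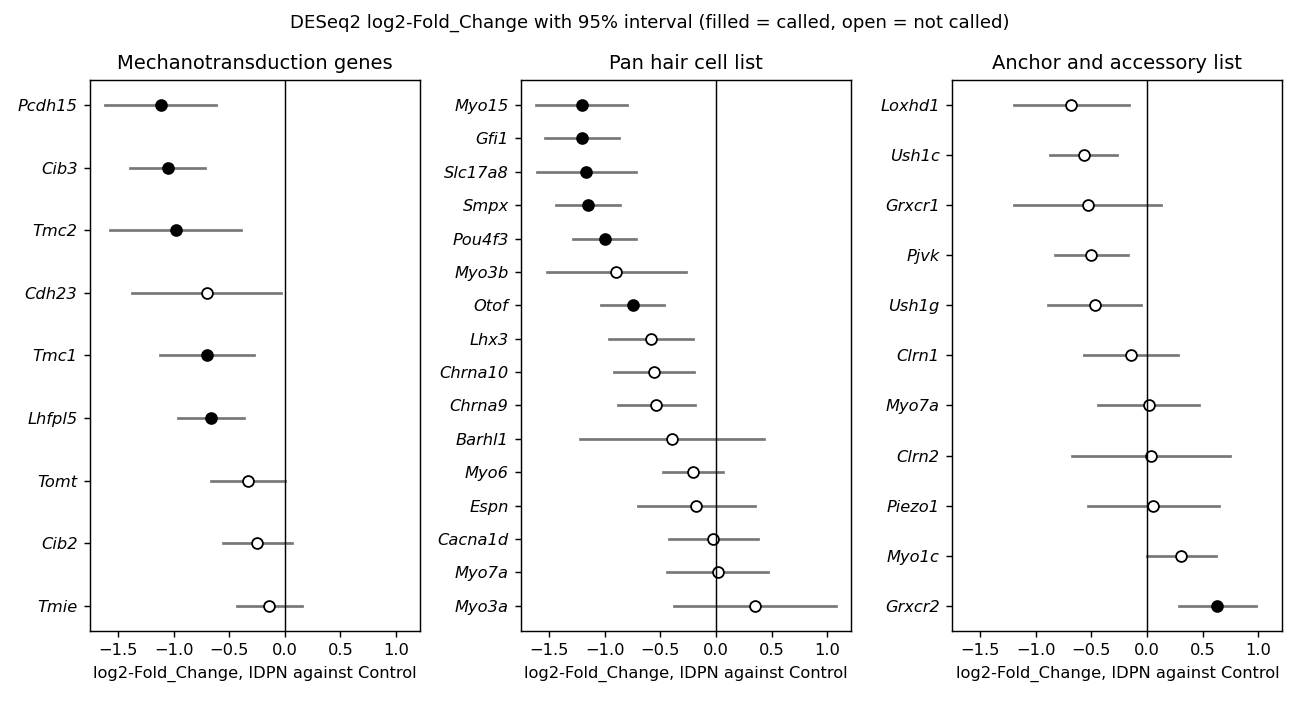
DESeq2 log2-Fold_Change (points) with 95% interval (lines) for the 9 transduction genes, 16 HC genes outside the complex, and 11 tested genes of the anchor and accessory list. That list also holds *Piezo1*, and *Myo7a* is shown in both lists of other genes. Filled points met both thresholds (Padj 0.05, fold change 1.5): 5 of 9, 6 of 16, and 1 of 11, the last being upregulated (*Grxcr2*).

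Ratios between the genes of a pair within one library do not depend on how libraries are scaled. The *Cib2* to *Cib3* ratio of counts per kilobase of exon was 0.259, 0.324 and 0.331 in Control 1 to 3 against 0.497, 0.492 and 0.602 in IDPN 1 to 3. All IDPN animals were higher than all Control animals. On the log2 scale the mean ratio was −1.72 ± 0.197 for Control and −0.92 ± 0.164 for IDPN (SD, n = 3 each), a difference of 0.80. The two-sided exact permutation p was 0.10, the smallest that 20 arrangements of 3 against 3 animals can give, and 0.30 after adjustment over the 3 ratios, so the design cannot reach significance for this ratio. The difference stayed between 0.69 and 0.87 when any 1 animal was left out.

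The *Tmc1* to *Tmc2* ratio did not separate the groups. It was 3.88, 3.27 and 5.23 in Control against 5.90, 3.39 and 6.94 in IDPN, where IDPN 2 fell among the Control animals (log2 difference 0.36, exact permutation p = 0.40, adjusted p = 0.40). The *Cdh23* to *Pcdh15* ratio had log2 values of −0.44, −0.09 and −0.09 in Control against 0.57, −0.12 and −0.04 in IDPN. Its difference of 0.35 (exact permutation p = 0.30, adjusted p = 0.40) came mostly from IDPN 1 and was 0.13 without that animal.

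**Figure D3:**
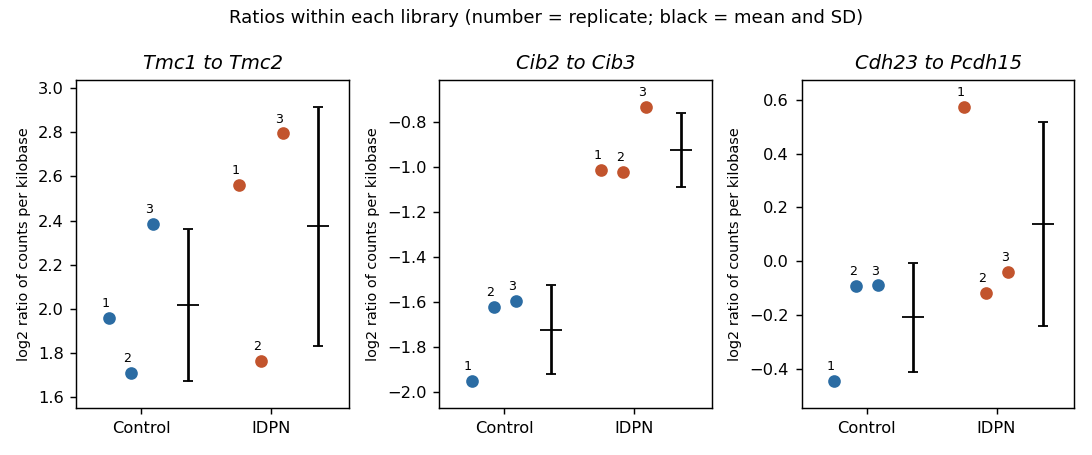
Log2 ratio of counts per kilobase for the 3 gene pairs (vertical axes, each with its own range) in each Control (blue) and IDPN (orange) library, with replicate numbers above the points and group mean ± SD in black. The groups separate for *Cib2* to *Cib3*, with Control at −1.95 to −1.60 and IDPN at −1.02 to −0.73, and overlap for the other pairs.

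Levels of different genes were compared as TPM (transcript abundance per length, scaled to the same sum in each library), computed here from the counts and the exonic length of each gene. *Cib3* was the most abundant of the 9 in both groups, at 212 ± 10.7 TPM in Control against 132 ± 14.2 TPM in IDPN (SD, n = 3 each). *Cib2* followed at 64.7 ± 9.32 TPM in Control, then *Tomt* at 61.5 ± 15.7, *Lhfpl5* at 45.0 ± 9.65, *Tmie* at 27.3 ± 7.12 and *Tmc1* at 13.2 ± 5.74. The level and place of *Tomt* carry the overlap with *Anapc15* described above. *Tmc2* was lower at 3.12 ± 0.588 TPM, and the tip-link genes lowest, with *Pcdh15* at 0.719 ± 0.301 and *Cdh23* at 0.636 ± 0.317.

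In IDPN the levels were 69.7 ± 4.66 TPM for *Cib2*, 62.1 ± 14.3 for *Tomt*, 36.2 ± 5.61 for *Lhfpl5*, 31.4 ± 4.66 for *Tmie*, 10.3 ± 3.44 for *Tmc1*, 2.00 ± 0.653 for *Tmc2*, 0.499 ± 0.295 for *Cdh23* and 0.419 ± 0.129 for *Pcdh15*. The same genes thus held the first 7 places in both groups, and the tip-link genes exchanged the last places. In TPM the IDPN mean was above the Control mean for *Cib2*, *Tmie* and *Tomt*, each by less than the larger SD of the groups.

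Some neighbours in this order were not distinct. The Control ranges of *Cib2* and *Tomt*, of *Tomt* and *Lhfpl5*, and of *Pcdh15* and *Cdh23* overlapped. In IDPN the ranges overlapped for *Cib2* and *Tomt*, for *Lhfpl5* and *Tmie*, and for *Cdh23* and *Pcdh15*. The order of *Cib2*, *Tomt* and *Lhfpl5* in Control also depended on the length used, as *Lhfpl5* came second with the longest coding transcript in place of the union of exons. With that length *Pcdh15* stood above *Cdh23* in both groups. *Cib3* came first with either length.

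The make-up of the complex at the RNA level was described by the share of each gene in the summed TPM of the 8 genes without *Tomt*. *Cib3* made up 58.1% ± 4.16 of this sum in Control against 46.8% ± 2.01 in IDPN (SD, n = 3 each). These shares rest on the union of exons, which is 2014 bases for *Cib3*. With its longest coding transcript (585 bases) *Cib3* stood at 731 TPM in Control and 455 TPM in IDPN. The size of the shares therefore depends on the length used. *Cib2* stood at 17.6% ± 1.42 and 24.8% ± 2.13, and *Tmie* at 7.35% ± 1.07 and 11.1% ± 0.674. *Lhfpl5* had nearly the same share in both groups, 12.2% ± 1.33 and 12.8% ± 0.588. Shares add up to the whole, so a lower share of *Cib3* raises the others without any change of their own.

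The 3 genes with the longest exonic sequence, *Pcdh15* (23773 bases), *Cdh23* (16939) and *Tmc1* (7190), all had their highest Control value in Control 3, as did the shorter *Tmie* and *Tomt*. Libraries differed in how counts depended on gene length. Counts not yet scaled for library size were smoothed over length, so each deviation from the mean library also holds the overall level of its library. At the length of *Tmc1*, the log2 deviation was −0.33, −0.28 and 0.21 in Control 1 to 3. In IDPN 1 to 3 it was 0.31, −0.02 and 0.11. At the length of *Cib2*, the shortest of the 9, the values were −0.24, −0.08 and 0.11 against 0.15, −0.02 and 0.08. At the length of *Pcdh15*, the longest, they were −0.35, −0.28 and 0.29 against 0.33, −0.15 and 0.16. The dependence on length is the change between these lengths. With offsets for length, the same number of the 9 genes was called, 5, and *Tmc1* had a log2-Fold_Change of −0.73 (DESeq2 Padj = 0.00623), *Pcdh15* one of −1.11 (4.63e-05) and *Cdh23* one of −0.72 (0.177).

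The 16 HC genes outside the complex are a chosen list that served as a reference. Whether they stand for HC transcripts at large was not tested. Of these, 6 were downregulated and none upregulated, with a median log2-Fold_Change of −0.57 against −0.70 for the 9 transduction genes. The downregulated ones were the transcription factor genes *Pou4f3* (means of 6354 and 3174 normalized counts) and *Gfi1* (log2-Fold_Change −1.21), the stereocilia myosin gene *Myo15* (−1.21), the vesicular glutamate transporter gene *Slc17a8* (−1.16), the small muscular protein gene *Smpx* (−1.15) and the synaptic gene *Otof* (−0.75). *Lhx3* (−0.58, DESeq2 Padj = 0.0443), *Chrna10* (−0.56, 0.0426) and *Chrna9* (−0.53, 0.0459) passed the Padj but not the fold-change threshold. *Myo3b* (−0.90, DESeq2 Padj = 0.0674) was not significant. Others were nearly level, among them *Myo7a* (0.01), the calcium channel gene *Cacna1d* (−0.02) and the bundle gene *Espn* (−0.18). Of the 16 genes, 14 were lower in IDPN and 2 higher. For 11 of them every IDPN library lay below every Control library, against 11.4% of all genes tested. The spread of values in the list, from −1.21 to 0.35, covered that of the transduction genes.

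Scaled to this list, so that values are relative to the listed HC genes, none of the 9 genes was downregulated. *Cib3* had a log2-Fold_Change of −0.34 (95% interval −0.70 to 0.03, DESeq2 Padj = 0.113), *Pcdh15* one of −0.39 (−0.91 to 0.13, 0.206) and *Tmc2* one of −0.28 (−0.87 to 0.31, 0.434). *Tmc1* (0.02, −0.40 to 0.45), *Lhfpl5* (0.06, −0.26 to 0.38) and *Cdh23* (0.02, −0.65 to 0.68) were close to the list.

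*Tmie* was called upregulated against the list (0.59, 95% interval 0.25 to 0.93, DESeq2 Padj = 0.00213). Its values on that scale were 1375, 1265 and 1414 in Control against 1962, 1931 and 2207 in IDPN, without overlap. *Cib2* (0.48, DESeq2 Padj = 0.0210) and *Tomt* (0.38, DESeq2 Padj = 0.0386) passed the Padj but not the fold-change threshold. On this scale 48.7% of 19066 genes were upregulated and 0.839% downregulated, and the median gene stood at 0.75. These values are thus relative to the listed HC genes and not to the tissue. How far *Tmie*, *Cib2* and *Tomt* are expressed outside HCs in this tissue was not tested.

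**Figure D4:**
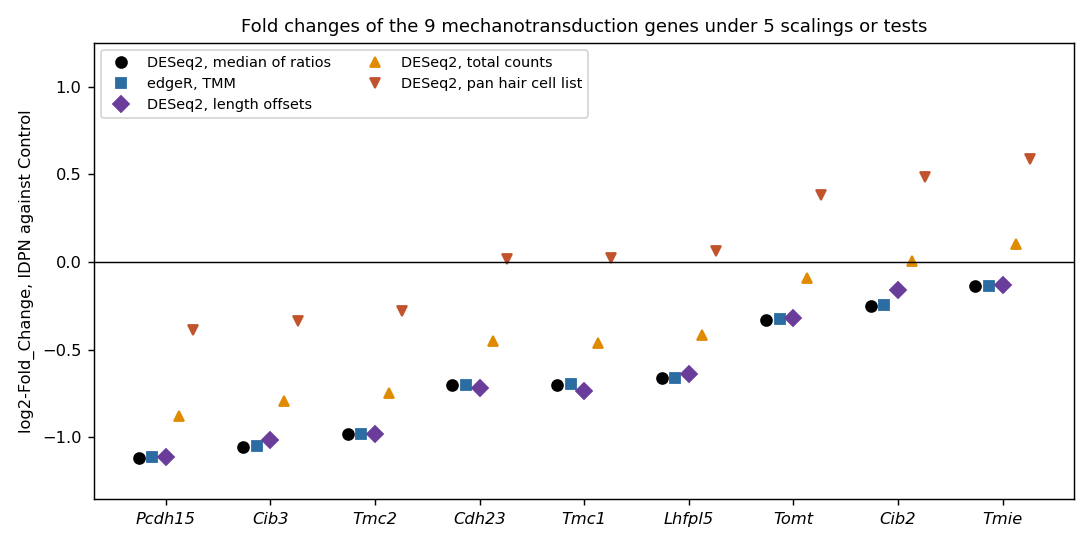
DESeq2 or edgeR log2-Fold_Change (vertical axis) of the 9 transduction genes, ordered by their main value, under 5 ways of scaling or testing. Values with median of ratios, TMM and length offsets nearly coincide; those with total counts are shifted up, and those scaled to the HC list are highest, from −0.39 for *Pcdh15* to 0.59 for *Tmie*.

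Listed genes around the transduction complex showed no common direction. A list of 12 genes, of the tip-link anchor, bundle accessories and the channel genes *Piezo1* and *Piezo2*, was in the table in full. Of these, 11 were abundant enough to test. *Piezo1* (0.06) and *Myo7a* (0.01), which is also in the list of HC genes above, were nearly level. None was downregulated, 1 was upregulated, and the median log2-Fold_Change was −0.14, with 6 genes lower and 5 higher. *Piezo2*, which encodes a mechanically gated channel of touch neurons, had at most 2.43 normalized counts and was not tested.

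*Ush1c*, which encodes the scaffold protein harmonin at the upper tip-link anchor, was the most abundant of the list. It had 18993, 19172 and 16079 normalized counts in Control against 11057, 12886 and 12560.4 in IDPN, without overlap. Its log2-Fold_Change of −0.57 had a DESeq2 Padj of 0.00527 but lay just short of the fold-change threshold (edgeR adjusted p = 0.107). *Pjvk*, which encodes pejvakin, stood in the same position (−0.50, DESeq2 Padj = 0.0448). The hair bundle gene *Loxhd1* (−0.68, DESeq2 Padj = 0.108) and the scaffold gene *Ush1g* (−0.47, DESeq2 Padj = 0.206) were not significant, nor was the motor gene *Myo1c* (0.31, DESeq2 Padj = 0.299).

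*Grxcr2*, a stereocilia gene, was the upregulated one. Its normalized counts were 1362, 1521 and 1312 in Control against 1888, 2572 and 2039 in IDPN, so that every IDPN animal was higher than every Control animal. The log2-Fold_Change was 0.63 (95% interval 0.29 to 0.98, DESeq2 Padj = 0.00924, edgeR adjusted p = 0.0459), and 2.32% of all genes tested were upregulated. The call was lost without Control 1 or IDPN 2.

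Relatives of the transduction genes from the same families were examined to see whether the change went with the family. Of 13 such genes, 9 were abundant enough to test, with a median log2-Fold_Change of −0.31. *Lhfp* was downregulated, from 2566 ± 241 to 1546 ± 142 normalized counts (SD, n = 3 each), a log2-Fold_Change of −0.73 (DESeq2 Padj = 0.000318, edgeR adjusted p = 0.0194), and scaling to total counts ended that call (−0.46, DESeq2 Padj = 0.238). The channel family members *Tmc4* (−0.36, DESeq2 Padj = 0.158), *Tmc6* (0.04, 0.941) and *Tmc3* (0.61, 0.327) were not significant, nor were *Cib1* (−0.35, 0.328) and *Lhfpl4* (−0.44, 0.190).

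Marker genes of other cells were summed in the same libraries. The neuron list (*Nefl*, *Nefm*, *Tubb3*, *Prph*) had summed normalized counts of 4318 to 4435 in Control against 2689 to 3073 in IDPN. *Nefl* (means 3085 and 2043) and *Nefm* (1270 and 814) made up most of this sum. These 2 of 4 genes were downregulated, *Nefl* alone with edgeR. *Prph* went the other way without overlap, from 12.7 ± 7.81 to 36.7 ± 8.54 (SD, n = 3 each), but was not significant (DESeq2 Padj = 0.148). *Tubb3* had few counts (means 10.2 and 8.78). The supporting cell list had 308541 to 440265 and 217944 to 260743. Of its 6 genes, 1 was downregulated, *Gjb6*, which did not pass with edgeR (adjusted p = 0.0690). No gene was called in the macrophage (5 genes), Schwann cell (4), stroma (5), dark cell (4) or melanocyte (4) lists, whose summed ranges overlapped between the groups. With total-count scaling, 3 of 4 melanocyte genes and 1 of 5 stroma genes were upregulated. The melanocyte sum was 5744 in Control 3 and 12764 to 19332 in IDPN. The Schwann cell sum was 216890 in Control 1 and 83092 to 113648 in the other libraries. No list was at 0 for any of its genes in all libraries. Among HC subtypes, 2 of 3 type I genes (*Ocm* and *Atp2b2*) and 1 of 3 type II genes (*Calb2*) were downregulated. The part of these shifts in the values of the transduction genes was not tested.

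Similarity of profiles over the 6 libraries was measured as the root mean square difference of centred log2 values, among 11149 genes with a symbol and at least 100 mean normalized counts. The genes closest to the mean profile of the 9 were *Pcdh20* (0.0497), *Ttc25* (0.0534), *Inhba* (0.0657), *Katnal2* (0.0662) and *Tmem45a* (0.0695). Within the complex, *Tmc1* and *Pcdh15* were each other's nearest (0.215), as were *Tmie* and *Cib2* (0.157). *Cdh23* lay nearest to *Tmc1* (0.233), *Tmc2* to *Cib3* (0.267), *Cib3* to *Lhfpl5* (0.251), *Lhfpl5* to *Tomt* (0.186) and *Tomt* to *Tmie* (0.162). Each gene had a closer match outside the complex than inside it, which were *Ano4* for *Tmc1*, *Nme9* for *Tmc2*, *Jak1* for *Tmie*, *BC052040* for *Lhfpl5*, *Arl3* for *Cib2*, *Fank1* for *Cib3*, *Dnah1* for *Pcdh15*, *Zfp583* for *Cdh23* and *Cul7* for *Tomt*. These distances describe 6 libraries that share their group difference, and many more genes stood outside than inside.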

How the data were processed

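RNA from vestibular epithelium of 3 Control and 3 IDPN mice was sequenced as paired 76-base reads. The authors aligned the reads to GRCm38 with STAR 2.5.3a and estimated counts with RSEM 2.3.0 on GENCODE M15. The deposited values are these estimated (expected) counts, in whole numbers without normalization. The library preparation did not mark strand and held no molecular identifiers.

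The main test was the Wald test of DESeq2 1.42.0 in R 4.3.3, the software the study names, on all 6 libraries and all genes without covariates. Its thresholds were used here (Padj under 0.05 and a fold change above 1.5). Intervals are Wald intervals. The Cook filter left 40 genes without a p-value. Alternatives were edgeR 4.0.16, other scalings and filters, a test against a fold change of 1.5, length offsets (lowess span 0.3), and leaving out each library. The code was tested on simulated counts. Ratios were compared by two-sided exact permutation tests, without a pseudocount. Size factors were 0.825 to 1.21, and depth did not separate the groups (exact permutation p = 0.50). Replicates differed by more than sampling noise, with chi-square per degree of freedom of 40.7 to 158.

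Coordinates and lengths came from GENCODE M21 on GRCm38, found for 52403 genes (99.6%). *Pjvk* was matched by gene identifier. TPM used the union of exons. Replicates were numbered in the order of the labels. All genes of the lists could be named, and for profiles the closest genes were named (5 for the mean, 1 for each gene). The genes, lists and tests were chosen with earlier results of these data known.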

Additional observations from a re-analysis of the deposited data

How the results depend on the processing

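No paired analysis was possible because the labels give no replicate number that Control and IDPN animals have in common. Of the 9 transduction genes, 5 were downregulated with DESeq2, 3 with edgeR, 1 with total-count scaling, 0 with the test against a fold change of 1.5, 0 (and 1 upregulated) with scaling to the HC list, and 3 to 5 when 1 animal was left out. The number was 3 without Control 1, Control 3 or IDPN 3. TMM size factors, the low-count filter, independent filtering off, the Cook filter off and length offsets left 5. Signs turned under total-count scaling for *Tmie* (0.10) and *Cib2* (0.0051). Under scaling to the HC list they turned for *Tmc1* (0.022), *Tmie* (0.59), *Lhfpl5* (0.061), *Cib2* (0.48), *Cdh23* (0.016) and *Tomt* (0.38). *Cib3*, *Pcdh15* and *Tmc2* stayed lower in all alternatives run. In the anchor and accessory list the downregulated count went from 0 to 1 with length offsets, and to between 0 and 2 without 1 animal (1 without Control 1, Control 3 or IDPN 3, and 2 without IDPN 2). Its upregulated count of 1 became 0 with the test against a fold change of 1.5, 4 with scaling to the HC list, and 0 to 1 without 1 animal. Scaled to the HC list, 48.7% of the 19066 genes tested were upregulated, a share that also stands beside the upregulated counts of the other lists on that scale. The downregulated count of 1 among relatives became 0 with total-count scaling, the test against a fold change of 1.5 and scaling to the HC list, where 4 were upregulated. The count of 6 downregulated HC genes stayed 6 with edgeR and became 7 with length offsets and 5 with total-count scaling. It became 2 with the test against a fold change of 1.5 and 0 with scaling to the list itself, where 3 were upregulated. Without 1 animal it was 6 to 8. A pseudocount of 1 left the sign of the 3 ratios as it was. The causes were not tested. *Tmc2*, *Cdh23* and *Pcdh15*, at 66.3 to 431 normalized counts per library, had the widest intervals of the 9 genes, which limits what can be said of them at this depth.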

Other observations

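A stretch just outside the annotated *Cib3* gene resembled the start of the *Cib2* coding sequence. In the promoter sequence that RefSeq gives for *Cib3* (GRCm38.p6), a stretch that lies 86 bases before the start of the GENCODE gene matched the first 51 coding bases of *Cib2* at 40 of 51 positions (78.4%), while the next best position matched at 19. Both stretches are on the minus strand and are printed with identical bases in capitals, to show how far the match runs from the first ATG.
Cib2, chr9:54559968-54560018: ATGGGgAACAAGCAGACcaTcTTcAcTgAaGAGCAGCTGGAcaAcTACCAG
Cib3, chr8:72212924-72212974: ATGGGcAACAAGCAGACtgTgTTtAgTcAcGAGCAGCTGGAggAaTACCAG
The annotated coding sequence of *Cib3* is 480 bases and that of *Cib2* 561. The stretch is outside the gene model whose length gave the TPM of *Cib3*. The same length enters Control and IDPN, so the difference in the *Cib2* to *Cib3* ratio between the groups does not depend on it. Whether this stretch is transcribed in vestibular epithelium was not tested.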
